A study of Mus musculus with 2 samples.

Results

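The genes described are 10 inflammatory chemokines of myeloid cells, chosen by symbol from the count table: Ccl2, Ccl8, Ccl12, Ccl3, Ccl4, Ccl6, Ccl9, Ccl24, Cxcl2 and Cxcl16. They are 10 of 32285 gene rows, and each had at least 1 UMI (unique molecular identifier, a counted transcript molecule) in the cells kept. The cells came from the thymus of adult C57BL/6 mice (C57BL/6J in the series' design text), with no genotype, treatment or sex given in the labels, and the number of mice pooled is not given either. After enzymatic digestion they had been sorted for surface CD64, an Fc receptor of macrophages and many monocytes, and read with 10x Genomics 3′ chemistry. All gene values come from the library of 2021, and the library of 2024, without a gene list here, was used for depth only. There are thus no replicates and no tests. All intervals are 95% intervals, exact Poisson for levels and exact binomial for shares, and cover counting error only. Where no cell of a group had a UMI, the share of cells with a UMI that this allows is given as 3 counts of the number of cells.

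Chemokines are small secreted proteins that bind G protein-coupled receptors and draw leukocytes along their gradient. Macrophages, monocytes and neutrophils make inflammatory chemokines in bursts after they sense microbes, damage or cytokines, and single cells often differ widely in how much transcript they carry. In the thymus, where T cells develop, myeloid cells clear dying thymocytes, and chemokines of dendritic cells and stroma guide developing T cells.

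The 2021 library held 8534578 UMIs in 3214 barcodes, of which 3188 passed the filter (500 or more UMIs, 300 or more genes, and mitochondrial UMIs of 10% or less), and 3185 were kept after doublet calling. Their median depth was 2169 UMIs. The labels call the cells macrophages, but macrophage-like cells were 13.9% of those kept (444 cells). All 12 macrophage markers were raised in their cluster of 50 cells led by Vcam1, but 7 of 12 in their cluster of 394 cells led by C1qa (not Mertk, Cd163, Slc40a1, Spic or Hmox1). In the C1qa cluster 3 of 12 monocyte markers (Ccr2, Plac8 and Cx3cr1) were raised as well. Monocyte-like (441), conventional dendritic cell (DC)-like (755), neutrophil-like (498), NK and ILC-like (300), T lineage-like (230) and B lineage-like cells (213) made up most of the rest. The other clusters, 3 in number, stayed unnamed and are called by their leading genes, Prg4 (45 cells), Prg2 (154) and Hist1h2ae (105). Clusters were made without any chemokine gene, so that the chemokines did not shape the classes.

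All but 2 of these genes lie on mouse chromosome 11 (GRCm38), most of them in 2 tight blocks. Ccl2 (ENSMUSG00000035385, chr11:82035571-82037453), Ccl12 (ENSMUSG00000035352, chr11:82101845-82103400) and Ccl8 (ENSMUSG00000009185, chr11:82115185-82116799) span 81229 bases on the plus strand. Ccl9 (ENSMUSG00000019122, chr11:83572919-83578636), Ccl6 (ENSMUSG00000018927, chr11:83587882-83593087) and Ccl3 (ENSMUSG00000000982, chr11:83647844-83649355), all on the minus strand, and Ccl4 (ENSMUSG00000018930, chr11:83662584-83664683) on the plus strand span 91765 bases. Cxcl16 (ENSMUSG00000018920, chr11:70453983-70459984, minus strand) lies apart from both blocks. Cxcl2 (ENSMUSG00000058427, chr5:90903871-90905938, plus strand) and Ccl24 (ENSMUSG00000004814, chr5:135569937-135573049, minus strand) are on chromosome 5.

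Upstream sequence is shown for Ccl12 and Ccl8, neighbours that were both raised in macrophage-like cells, and for Cxcl2, the gene highest in one set of neutrophils. The RefSeq promoter table (GRCm38.p6) matched 6 of the 10 genes. The bases given end before the gene start of both annotations, at chr11:82101595-82101844, chr11:82114935-82115184 and chr5:90903649-90903870, all on the plus strand and written 5′ to 3′. Capitals mark TATAAA in Ccl12 and Ccl8 and the NF-κB consensus in Cxcl2.
Ccl12: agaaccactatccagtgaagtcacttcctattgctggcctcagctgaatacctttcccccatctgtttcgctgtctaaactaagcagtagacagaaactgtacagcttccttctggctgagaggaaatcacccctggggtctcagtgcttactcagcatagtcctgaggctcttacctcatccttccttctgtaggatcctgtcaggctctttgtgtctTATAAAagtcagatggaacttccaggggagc
Ccl8: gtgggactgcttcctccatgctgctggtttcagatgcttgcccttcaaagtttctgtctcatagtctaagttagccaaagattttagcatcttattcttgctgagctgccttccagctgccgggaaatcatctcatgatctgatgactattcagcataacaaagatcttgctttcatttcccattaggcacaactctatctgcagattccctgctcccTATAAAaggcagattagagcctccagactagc
Cxcl2: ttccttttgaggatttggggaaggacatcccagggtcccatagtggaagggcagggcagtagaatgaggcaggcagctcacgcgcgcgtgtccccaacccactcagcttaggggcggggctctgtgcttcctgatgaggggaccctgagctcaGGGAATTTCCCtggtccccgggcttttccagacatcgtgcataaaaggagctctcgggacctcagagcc

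Motifs were searched on both strands in the 250 bases before the start. TATAAA was found in Ccl12, Ccl8 and Ccl9, against 12.4% of all 32851 promoters of that length. The NF-κB consensus was found in Cxcl2, where the matches on the 2 strands overlap, and in Ccl9, against 7.25% of promoters. The AP-1 motif TGANTCA was found in Ccl9 alone among the 6 (6.75% of promoters), and the GAS motif TTCNNNGAA in none of the 6 (7.02% of promoters). A match is a description of the letters in this window and not a measured binding site.

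Summed over the 10 genes, the transcripts were spread over several classes of myeloid cells and NK cells, and lymphocytes of the T and B lineages carried few. Macrophage-like cells held 3464 of the 9696 UMIs, a level of 2393 CPM (counts per 1000000 UMIs of the same cells; 2314 to 2474). NK and ILC-like cells stood at 2988 CPM (2803 to 3182) and monocyte-like cells at 1529 (1450 to 1610). Neutrophil-like cells as a class stood at 916 CPM (864 to 971), but this average joined unequal clusters. The cluster led by Cstdc4, Retnlg and Csf3r was at 5427 CPM (5098 to 5772), and the cluster led by the granule genes Camp and Ltf at 129.7 (109 to 153). T lineage-like and B lineage-like cells were at 73.8 CPM (41.3 to 122) and 83.1 CPM (59.4 to 113). Free RNA in the suspension gives some UMIs in any cell, and B lineage-like cells, with a median depth of 1656 UMIs against 2632 in macrophage-like cells, serve below as the background for shares of cells. In cells thinned to 2000 UMIs, 8 of the 10 genes had a higher share in their highest class than in B lineage-like cells. For these the intervals did not overlap, and Ccl8 and Ccl24 were the exceptions. For Ccl3 and Ccl4 the highest class, NK and ILC-like, had 9 such cells. The highest class of each gene was picked before this comparison. How many of all genes would pass was not counted, so the 8 are a description only.

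Raised in macrophage-like cells were 6 of the 10 genes, namely Ccl2, Ccl8, Ccl12, Ccl24, Cxcl2 and Cxcl16, where 4.29% of the 8814 genes with at least 50 UMIs were. A gene is called raised where its level, with 10 CPM added, was 1 or more log2 units above that of the remaining cells and rested on 3 or more UMIs. In monocyte-like cells 3 of the 10 were raised (Ccl2, Ccl6 and Ccl9), against 2.78% of all genes. In NK and ILC-like cells 3 were (Ccl3, Ccl4 and Ccl8), against 5.39%, and in neutrophil-like cells 1 (Cxcl2), against 5.38%. In conventional DC-like, T lineage-like and B lineage-like cells none was, against 2.44%, 15.9% and 2.51% of all genes. The small cluster led by Prg4 had 7 of the 10 raised, against 9.48%, and the cluster led by Prg2 had 2 (Ccl3 and Ccl4), against 17.2%. The cluster of dividing cells led by Hist1h2ae had none, against 3.37%.

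**Figure D1:**
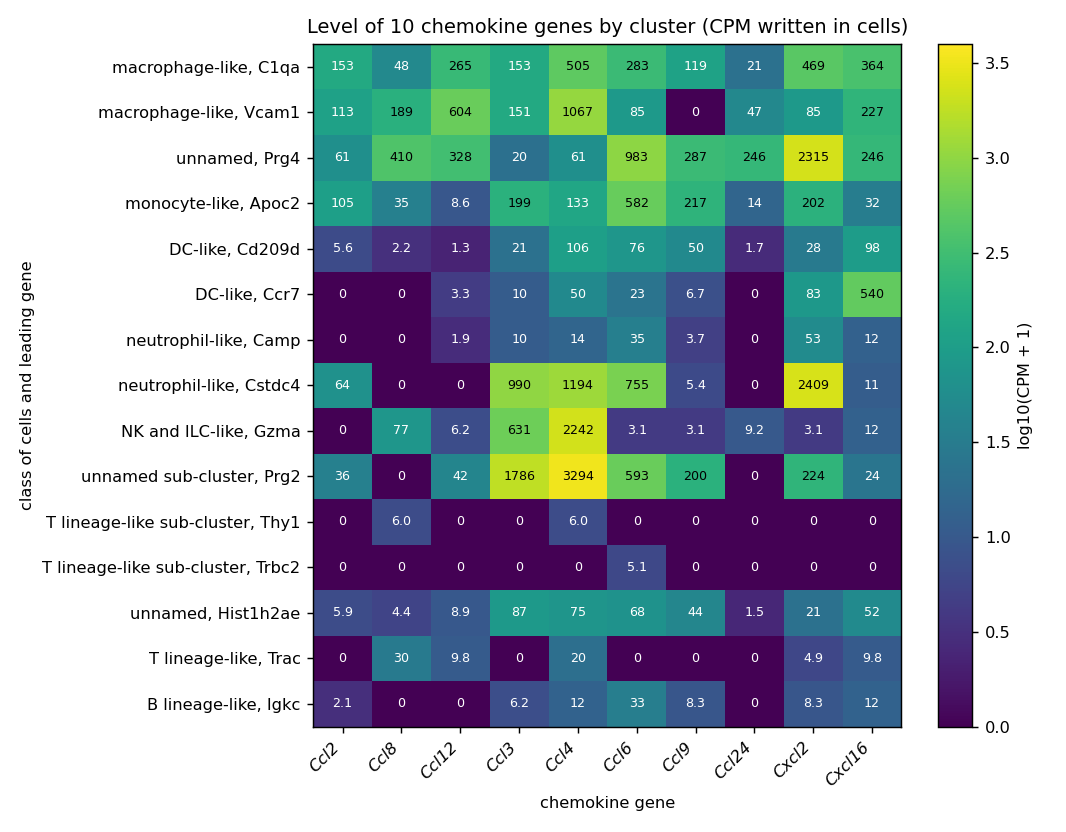
Level of the 10 chemokine genes (columns) in the clusters of the 2021 library and in the sub-clusters of the mixed cluster led by Prg2 (rows). Colour is log10(CPM + 1) and the CPM is written in each field. Ccl12 stood out in the macrophage-like clusters and the cluster led by Prg4, Ccl3 and Ccl4 in NK and ILC-like cells, Cstdc4 neutrophils and the sub-cluster led by Prg2, and the rows of T and B lineage-like cells held at most 33.2 CPM (Ccl6 in B lineage-like cells).

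**Figure D2:**
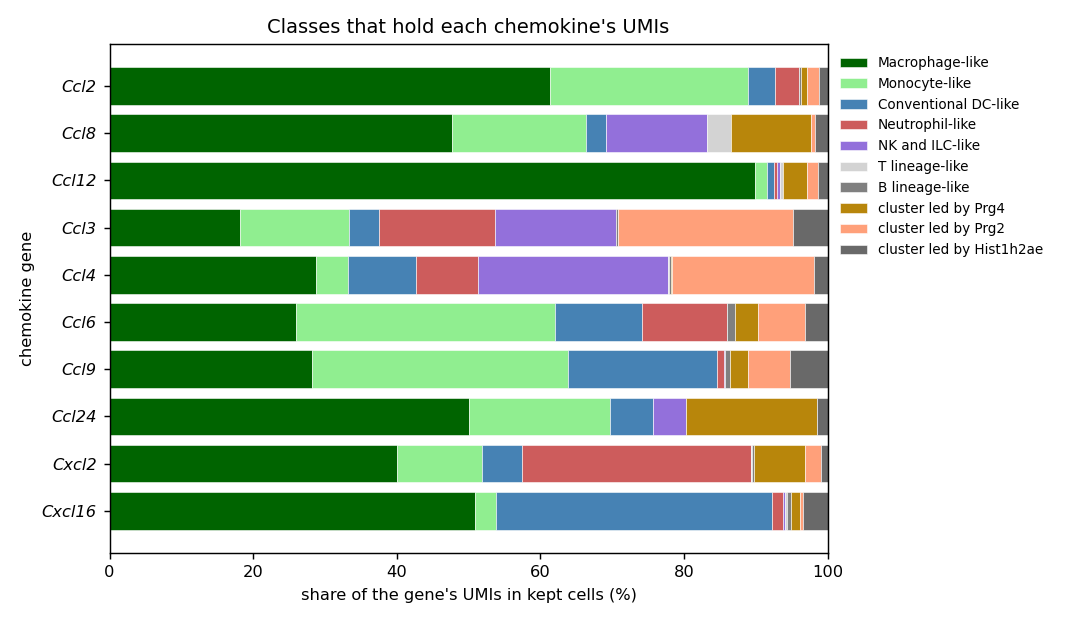
Share of each gene's UMIs in kept cells (horizontal axis, %) held by each class or unnamed cluster (colours). Ccl12 lay almost wholly in macrophage-like cells (89.9%), whereas Ccl3 and Ccl4 were divided over many classes.

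Among the ligands of CCR2, the receptor that brings inflammatory monocytes into tissue, Ccl12 was the most macrophage-restricted. Macrophage-like cells held 419 of its 466 UMIs (89.9%), a level of 289 CPM (262 to 319), against 8.60 CPM (3.71 to 16.9) in monocyte-like cells, a log2 ratio of 4.17 against all other cells. With classes cut by marker UMIs in place of clusters, the macrophage level was 579.6 CPM. The cluster led by C1qa was at 265 CPM (238 to 294). The cluster led by Vcam1 and Spic was at 604 CPM (465 to 772), but 42 of its 64 UMIs came from 1 cell, and it was at 214 CPM without that cell. Each of these macrophage levels lay far above the monocyte-like level. Thinned to 2000 UMIs per cell, 38 of 328 macrophage-like cells carried a Ccl12 UMI (11.6%, 8.33 to 15.6%), and 2 of 225 monocyte-like cells did (0.889%, 0.108 to 3.17%). B lineage-like cells carried it in 0 of 213 cells, which allows a share of up to 1.41%.

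Ccl2, the classic monocyte attractant, was shared between macrophages and monocytes. Macrophage-like cells held 217 of 354 UMIs, at 149.9 CPM (131 to 171), and monocyte-like cells 98 UMIs, at 105 CPM (85.5 to 128). The intervals did not overlap, but they take each UMI as independent, and these UMIs were bunched in few cells. They lay in 59 of 444 macrophage-like and 40 of 441 monocyte-like cells, and the top cell of each class held 24. Without that cell the levels were 134 CPM in macrophage-like and 79.8 CPM in monocyte-like cells. The intervals therefore cannot decide whether the level differed between the classes. With cells thinned to 2000 UMIs, the shares of cells with a UMI were alike within their intervals, at 10.98% (7.81 to 14.9%) and 9.78% (6.23 to 14.4%). No Ccl2 UMI was found in 300 NK and ILC-like or 230 T lineage-like cells, which allows shares of up to 1% and 1.30%, and 1 was found in 213 B lineage-like cells.

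Ccl8, another CCR2 ligand that in mice also acts through CCR8, was highest in the cluster led by Prg4, at 409.7 CPM (20 UMIs in 8 of 45 cells, 250.3 to 633). That cluster was shallow, with a median of 681 UMIs, and had 9 of 12 macrophage markers raised. Macrophage-like cells were at 58.7 CPM (46.9 to 72.6), with the largest part of the UMIs (85 of 178), and with classes cut by marker UMIs at 162 CPM (134 to 195). Monocyte-like cells at 35.5 CPM (24.4 to 49.8) were not separated from T lineage-like cells at 29.5 CPM (6 UMIs, 10.8 to 64.3). The level of 77.0 CPM in NK and ILC-like cells came from 2 cells, 1 of which held 24 of the 25 UMIs, and fell to 3.11 CPM without it. That cell carried 98 UMIs of macrophage markers beside 74 of NK markers, and both cells joined the cluster led by Prg4 when clusters were made at a finer resolution. The count of Ccl8 as raised in NK and ILC-like cells therefore rested on 1 cell.

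Ccl3 and Ccl4 encode MIP-1α and MIP-1β, chemokines made by activated macrophages, NK cells and granulocytes. Of the 7 named classes, NK and ILC-like cells were highest for both. Ccl4 stood there at 2242 CPM (2082 to 2411) and was found in 153 of 300 cells (51.0%, 45.2 to 56.8%), although these cells were shallow. Ccl3 stood at 631 CPM (548 to 724) and was found in 87 cells (29.0%, 23.9 to 34.5%). Without the top cell of the class, with 46 of the 205 UMIs, the Ccl3 level was 492 CPM. The class of next level was macrophage-like cells for Ccl4, at 546 CPM (508 to 585), and monocyte-like cells for Ccl3, at 199 (171 to 229.7). For Ccl3 the monocyte-like, neutrophil-like (156, 135 to 179) and macrophage-like levels (153, 133 to 174) had overlapping intervals. In T lineage-like cells, which were shallower (median 674 UMIs against 983.5), Ccl4 was found in 3 of 230 cells (1.30%) and Ccl3 in 0, which allows up to 1.30%.

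Outside the NK cells, the levels of Ccl3 and Ccl4 were highest in the Cstdc4 neutrophils and a small part of the mixed cluster led by Prg2. For Ccl4 the macrophage-like cluster led by Vcam1, at 1067 CPM (879 to 1283), had an interval overlapping that of the Cstdc4 neutrophils. Of its 113 UMIs 93 came from 1 cell. By UMIs, macrophage-like cells as a class held 790 of the 2749 of Ccl4. In the Cstdc4 neutrophils Ccl3 was at 990.2 CPM (853 to 1144; 29 of 163 cells) and Ccl4 at 1194 CPM (1042 to 1361; 18 cells). In the Camp neutrophils the levels were 10.3 CPM (5.12 to 18.4) for Ccl3 and 14.0 (7.83 to 23.1) for Ccl4. Both genes thus differed between the neutrophil clusters by far more than counting error. The mixed cluster split into 2 T lineage-like sub-clusters with 3 UMIs of the 10 genes between them and a sub-cluster of 37 cells led by Prg2, Prss34 and Mcpt8, with 1024 UMIs. There Ccl3 was at 1786 CPM (1588 to 2002) and Ccl4 at 3294 CPM (3023 to 3583).

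These 37 cells were themselves mixed. Of 7 basophil and mast cell markers all were raised in them, and 77 of the 79 Mcpt8 UMIs of all kept cells (Mcpt8 encodes a basophil protease) lay in 6 of the cells, but 11 of 12 T lineage markers were raised as well. Ccl3 or Ccl4 was found in 19 cells, whose median depth was 1151 UMIs, against 7163 in the other 18. Of these 19 cells 15 had a UMI of a neutrophil marker, against 12 of the other 18. A basophil or mast cell marker was found in 12 of the 19, and an NK or ILC marker in 11. A T lineage marker was found in 6 and a macrophage marker in 3, and none had a UMI of an eosinophil marker such as Prg2. The 18 cells with a basophil or mast cell marker UMI held 233 of the 295 Ccl3 UMIs and 446 of the 544 Ccl4 UMIs. No class name was given to them.

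Ccl6 and Ccl9, CCR1 ligands of rodents made steadily by myeloid cells, had their highest class level in monocyte-like cells, which held 36.1% and 35.6% of their UMIs. Single clusters were higher: the cluster led by Prg4 was at 983 CPM for Ccl6 (725 to 1304) and 287 for Ccl9 (157 to 481), the latter with an interval that overlaps the monocyte-like one. In monocyte-like cells Ccl6 stood at 582 CPM (534 to 633) and was found in 238 of 441 cells (54.0%, 49.2 to 58.7%), against 269 CPM (243 to 297) in macrophage-like cells. Ccl9 stood at 217 CPM (188 to 249) in monocyte-like and 111 CPM (94.1 to 129) in macrophage-like cells. For each gene the 2 intervals did not overlap. With classes cut by marker UMIs the monocyte levels were 351 CPM for Ccl6 and 143 for Ccl9. The genes parted in neutrophils: the Cstdc4 neutrophils carried Ccl6 at 755 CPM (635 to 890.0) in 59 of 163 cells, but 1 UMI of Ccl9 in all (5.35 CPM, 0.136 to 29.8). In the macrophage-like cluster led by Vcam1, Ccl9 had 0 UMIs in 50 cells, which allows a share of up to 6% of cells, and it was found in 103 of 394 cells of the cluster led by C1qa (26.1%, 21.9 to 30.8%).

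Ccl24 (eotaxin-2) acts through CCR3 on eosinophils and is a product of alternatively activated macrophages. It was the rarest of the 10 genes, with 66 UMIs in 31 cells. The cluster led by Prg4 was highest at 246 CPM (127 to 429), from 12 UMIs in 4 of 45 cells. Macrophage-like cells were at 22.8 CPM (15.7 to 32.02) and monocyte-like cells at 14.0 (7.44 to 23.9), and these intervals overlapped. The macrophage-like level was 45.6 CPM with the highest doublet scores removed and 37.2 with classes cut by marker UMIs. Without the cell with the most UMIs, Ccl24 was no longer raised in macrophage-like cells.

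Cxcl2 (MIP-2) recruits neutrophils through CXCR2. The Cstdc4 neutrophils were its highest cluster, at 2409 CPM (2191 to 2642), and 70 of their 163 cells had a UMI (42.9%, 35.2 to 50.9%). The Camp neutrophils were at 53.2 CPM (40.3 to 68.9). As classes, macrophage-like cells at 441 CPM (407 to 476) and neutrophil-like cells at 403 (369 to 439.5) had overlapping intervals. Without the single macrophage-like cell with 117 UMIs, the macrophage-like level was 362 CPM and the neutrophil-like level was the higher. The cluster led by Prg4 reached 2315 CPM (1908 to 2783) from 6 of 45 cells, 1 of which held 54 of the 113 UMIs.

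Cxcl16, the ligand of CXCR6, is made as a membrane protein that also takes up oxidized lipids and is shed by proteases. Its highest level was in a dendritic cell cluster. The DC-like cluster led by Ccr7 and Fscn1, genes of mature migratory DCs, was at 540.0 CPM (460.1 to 629.9), with a UMI in 71 of 107 cells (66.4%, 56.6 to 75.2%). Macrophage-like cells were at 354 CPM (324 to 386), and the DC-like cluster led by Cd209d was at 97.7 CPM (85.3 to 111). Monocyte-like cells were low, at 32.3 CPM (21.7 to 46.0). Thinned to 2000 UMIs, 56.6% of the Ccr7 cells (45.3 to 67.5%) and 41.8% of macrophage-like cells (36.4 to 47.3%) carried a UMI, against 3.49% of B lineage-like cells (0.725 to 9.86%). Adam17 and Adam10, which encode sheddases of the protein, were at 82.2 and 62.9 CPM in macrophage-like cells. The 5′ end of Cxcl16 overlaps Zmynd15, a leading gene of the Ccr7 cluster, by 552 bases on the opposite strand, and whether strand was used in the counting is not given in the sources used here.

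The second question was how far each chemokine's transcripts lay in few cells. The measure was the fewest cells that together held at least 50% of a gene's UMIs, and a gene was called concentrated when these cells were at most 1% of those kept (31 cells). Concentrated were 6 of the 9 genes with at least 100 UMIs (Ccl2, Ccl8, Ccl12, Ccl3, Ccl4 and Cxcl2), where 1.70% of 6831 genes were. The same 6 had a UMI in less than 0.5 of the cells that an even spread per UMI within clusters gives, where 0.673% of genes did. The median gene needed 101 cells.

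By this number of cells Ccl12 and Ccl8 were the most extreme, but Ccl8 had few UMIs and other measures ordered the genes differently. Against an even spread within clusters, Ccl12 (0.295) was lowest, and Cxcl2 (0.319) was below Ccl8 (0.333). Cells with 10 or more UMIs held 61.9% of the Ccl4 and 61.1% of the Cxcl2 UMIs, against 46.1% for Ccl8. For Ccl12, 8 cells held at least 50% of 466 UMIs, all of them macrophage-like, and the top cell alone held 42. For Ccl8, 6 cells held at least 50% of 178 UMIs, and 3 of them were macrophage-like. Both also passed a limit of 0.5% of cells, where 0.571% of genes did. Ccl12 was found in 86 cells, although an even spread per UMI within clusters gives 291, and 11 cells with 10 or more UMIs held 58.6% of its transcripts.

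For Ccl2, 16 cells held at least 50% of 354 UMIs, and 12 of them were macrophage-like. For Ccl4, 27 cells did so for 2749 UMIs, 11 of them macrophage-like and 8 in the cluster led by Prg2, although NK and ILC-like cells had the highest class level. Of the NK and ILC-like cells 4 were among the 27. Within that class 23 of 300 cells held at least 50% of its 728 Ccl4 UMIs. The top cell of the class held 94 of them, and its level was 1962 CPM without that cell. For Ccl3, 30 cells did so for 1216 UMIs, with 9 in the cluster led by Prg2, 6 macrophage-like and 6 neutrophil-like. For Cxcl2, 31 cells did so for 1593 UMIs, 12 macrophage-like and 12 neutrophil-like, which put this gene at the limit. A single cell of the cluster led by Prg2 had the most UMIs of both Ccl3 (83) and Ccl4 (132), and these made up 7.69% and 12.2% of its 1079 UMIs.

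Ccl6, Ccl9 and Cxcl16 were spread more evenly than these 6, but less evenly than most genes. They needed 112, 95 and 120 cells for at least 50% of 1500, 567 and 1007 UMIs. No cell had more than 8 UMIs of Cxcl16 or 10 of Ccl9. Ccl6 was found in 0.610, Ccl9 in 0.768 and Cxcl16 in 0.779 of the cells that an even spread within clusters gives, and the median over all genes was 0.958, with 5% of genes below 0.826. Ccl24, under the minimum of 100 UMIs, had at least 50% of its 66 UMIs in 8 cells.

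**Figure D3:**
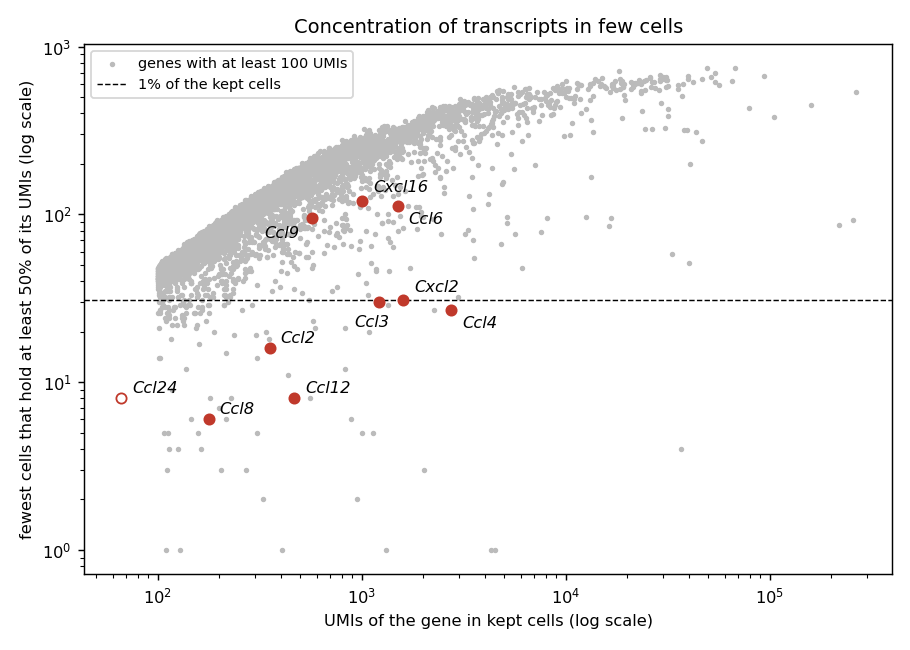
Fewest cells that hold at least 50% of a gene's UMIs (vertical axis, log scale) against the gene's UMIs in kept cells (horizontal axis, log scale). Grey points are the 6831 genes with at least 100 UMIs, red points the chemokines (Ccl24, open, has 66 UMIs), and the dashed line marks 31 cells. Of the filled points 6 lie on or under the line and Ccl6, Ccl9 and Cxcl16 above it.

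**Figure D4:**
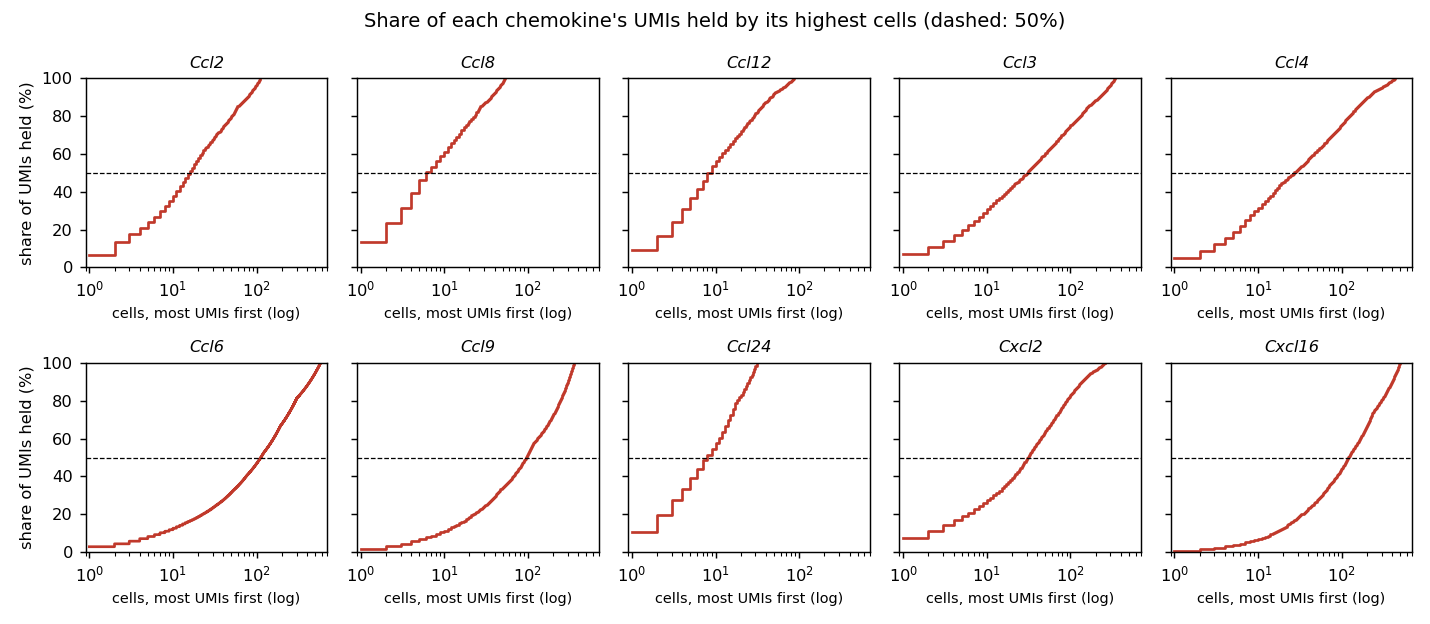
Share of each gene's UMIs (vertical axis, %) held by its highest cells (horizontal axis, number of cells in order of UMIs, log scale). The curves of Ccl8, Ccl12 and Ccl24 cross the dashed 50% line before 10 cells, and those of Ccl9, Cxcl16 and Ccl6 between 95 and 120 cells.

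Depth and doublet scores differed between these cells and the rest. The macrophage-like cells among them had median depths of 4250 UMIs for Ccl2, 3501.5 for Ccl12, 3262 for Ccl4 and 4387.5 for Cxcl2, against 2632 in all macrophage-like cells. The cells of the Prg2 cluster among those high in Ccl3 were shallower, at a median of 995 UMIs against 2446. Median doublet scores of the high cells of the 6 concentrated genes lay between 0.0468 and 0.0686, against 0.0354 in all kept cells, and at most 3 cells per gene were among the 6% with the highest scores. Their part in the result was not tested.

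Cells differed in how many of the chemokines they combined. With macrophage-like cells thinned to 2000 UMIs, 75 of 328 carried none of the 10 genes and 71 carried 3 or more (21.6%), with 7 at most. Of the thinned monocyte-like cells 14.7% carried 3 or more, and of conventional DC-like cells 1.32%. In the cluster led by Prg4, 5 of the 6 cells deep enough carried 3 or more. Of all pairs with 10 or more shared macrophage-like cells, Ccl3 and Ccl4 had the highest ratio to independence. Both were found in 25 cells where independence gives 9.37, a ratio of 2.67 (1.73 to 3.94). Of the 30 and 27 cells that held at least 50% of Ccl3 and Ccl4, 18 were the same, which is 60.0% and 66.7% of each set.

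Other pairs in macrophage-like cells were also found together more often. Ccl2 and Ccl12 were together in 11 cells where independence gives 4.17 (ratio 2.64, 1.32 to 4.72), and Ccl3 and Cxcl2 in 17 where it gives 7.61 (ratio 2.23, 1.30 to 3.58). Ccl8 and the rare Ccl24 shared 4 cells where it gives 0.299 (ratio 13.4, 3.65 to 34.3). For Ccl12 with Ccl6 the ratio was 0.421 (0.115 to 1.08) and for Cxcl16 with Ccl6 0.672 (0.426 to 1.01), and both intervals include 1. These counts describe 45 pairs, are small for most, and pool macrophage-like clusters with unequal levels.

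Gene lists, 3 in all, were then set beside the chemokines: 14 inflammatory genes such as Tnf, Il1b and Nfkbia, 9 interferon response genes such as Isg15 and Ifit1, and 11 immediate early and heat shock genes that tissue dissociation can raise. Inflammatory genes were higher in macrophage-like, monocyte-like and Cstdc4 neutrophil cells with Cxcl2, Ccl3 or Ccl4. In macrophage-like cells with a Cxcl2 UMI the list stood at 4413 CPM, against 2588 without (1.71-fold, 12 of 14 genes higher). The ratios were 1.49 for Ccl3, 1.48 for Ccl4 and 1.21 for Ccl2 (12 of 14 genes higher). In monocyte-like cells the ratio was 2.10 for Ccl4, with 9 of 14 genes higher. There it was 1.49 for Ccl2 (10 of 14), 1.43 for Ccl3 (8 of 14) and 0.885 for Ccl9 (3 of 14). In the Cstdc4 neutrophils it was 1.89 for Ccl3 and 1.80 for Cxcl2, and for both 14 of 14 genes were higher. In NK and ILC-like cells, where Ccl4 was most abundant, the list was at 814 CPM with and 832 CPM without a Ccl4 UMI.

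Interferon genes divided the chemokines differently in part, but in macrophage-like and monocyte-like cells both lists were higher with Ccl2 and with Ccl4. They were higher in macrophage-like cells with Ccl2 (1.57-fold, 9 of 9 genes) and Ccl12 (1.46-fold, 9 of 9) and in monocyte-like cells with Ccl2 (2.19-fold, 9 of 9). They were also higher in conventional DC-like cells with Cxcl16 (2.14-fold, 9 of 9), but by 1.10-fold within the Ccr7 cluster. In macrophage-like cells they were higher, too, with Cxcl16 (1.36-fold, 7 of 9) and Ccl4 (1.12-fold, 8 of 9). In monocyte-like cells they were higher with Ccl4 (1.69-fold, 8 of 9) and lower with Ccl6 (a ratio of 0.665, 2 of 9). They were lower in macrophage-like cells with Ccl6, at 1004 CPM against 1831 without (a ratio of 0.548, with none of the 9 genes higher), and the ratio was also below 1 for Ccl24 (0.517, 2 of 9), Ccl8 (0.663, 2 of 9), Ccl9 (0.780, 2 of 9), Ccl3 (0.838, 3 of 9) and Cxcl2 (0.918, 2 of 9). Macrophage-like cells with a UMI were deeper for each of the 10 genes, for example 3509 against 2570 UMIs at the median for Ccl2.

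The dissociation list had a ratio between 0.80 (Ccl9) and 1.33 (Ccl24) in macrophage-like cells, and of 1.52 for Cxcl2 in monocyte-like cells. Its level was 30798 CPM in the macrophage-like cluster led by Vcam1 and 8032 CPM in that led by C1qa. In the Cstdc4 neutrophils it was 9040 CPM, against 1538 CPM in the Camp neutrophils. Within the Cstdc4 neutrophils the ratio was 1.35 for Ccl3 and 1.25 for Cxcl2 (9 of 11 genes higher for each), and 1.08 for Ccl4 (3 of 11). The part of these lists in the chemokine levels was not tested.

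**Figure D5:**
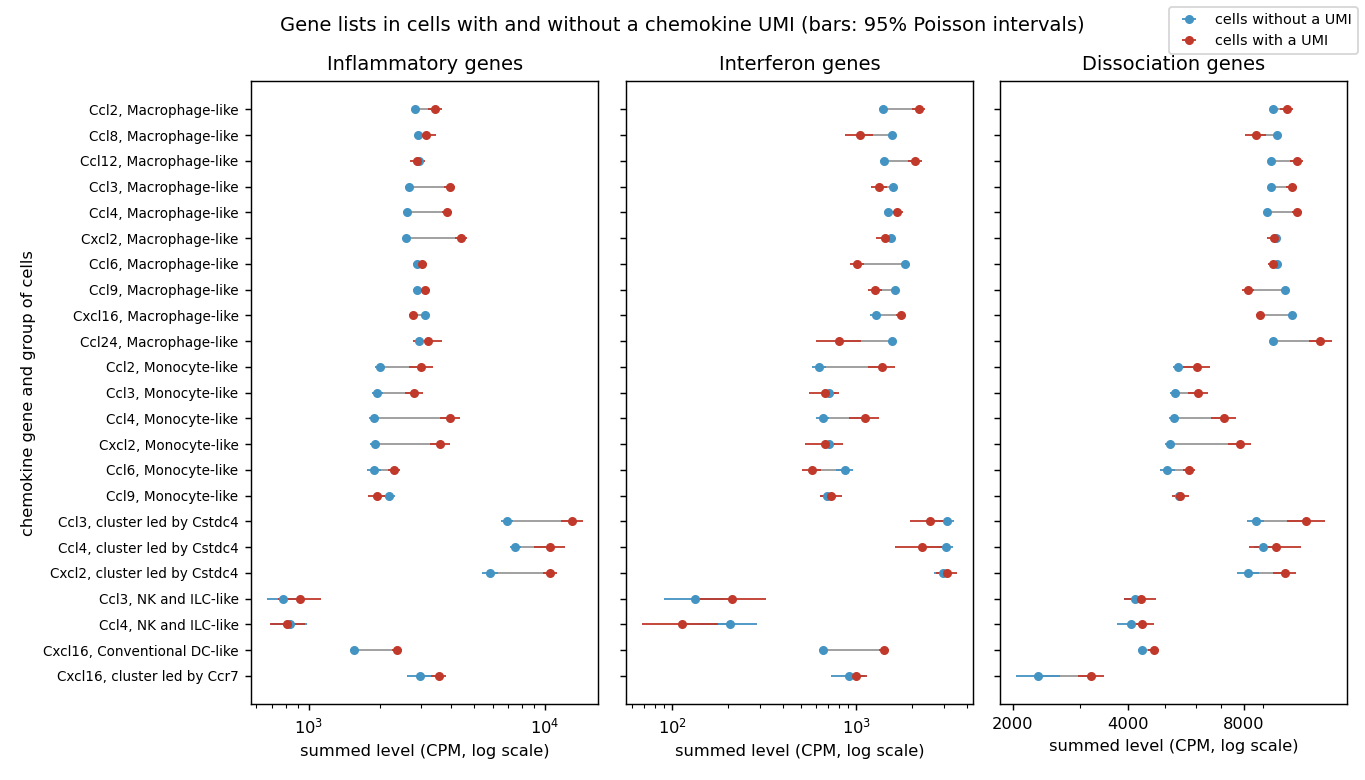
Summed level of 3 gene lists (panels; horizontal axis, CPM, log scale) in cells with (red) and without (blue) a UMI of the chemokine, for each chemokine and group of cells (vertical axis). Bars are 95% Poisson intervals. The widest gaps are those of inflammatory genes with Ccl4 in monocyte-like cells (2.10-fold) and of interferon genes with Ccl2 in monocyte-like cells (2.19-fold) and Cxcl16 in conventional DC-like cells (2.14-fold).

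Of the receptor genes of these ligands, Ccr2 is one of the monocyte markers and Cxcr2 one of the neutrophil markers that named the classes, so that their levels there are not independent of the names. Ccr2, the receptor of Ccl2, Ccl8 and Ccl12, was raised in monocyte-like (588 CPM) and macrophage-like cells (455 CPM). Cxcr2, the receptor of Cxcl2, and Ccr1, a receptor of Ccl3, Ccl6 and Ccl9, were raised in neutrophil-like cells, at 184 and 69.9 CPM. Cxcr6, the receptor of Cxcl16, had 11 UMIs in all and Ccr3, that of Ccl24, had 16.

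Of 25 other chemokine genes with a row, 9 had at least 50 UMIs. Ccl7, Cxcl9 and Cxcl10 were raised in macrophage-like cells, Ccl17 and Ccl22 in conventional DC-like cells, and Ccl5, Ccl27a and Xcl1 in NK and ILC-like cells. Ccl27a was raised in T lineage-like cells too, and Ccl7, Cxcl9 and Pf4 in the cluster led by Prg4. Ccl5, a T cell attractant of cytotoxic lymphocytes, had the highest NK and ILC-like level of these, at 28864 CPM.

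Genes whose level followed a chemokine most closely over the 13 clusters were found by Pearson's r of log2(CPM + 10), among genes with at least 100 UMIs. Axl, a receptor for dying cells, was closest to Ccl12 (r = 0.97). Pla2g2d, a secreted phospholipase, was closest to both Ccl8 and Ccl24 (0.96 each). Lair1 was closest to Ccl2 (0.91), Emilin2 to Ccl6 (0.92), Atf6b to Ccl9 (0.89) and Nav1 to Cxcl16 (0.93). Ccl3 and Ccl4 were closest to each other (0.92), and the gene closest to Cxcl2 was Ccl6 (0.89). All 13 points come from 1 library, differ in depth and include clusters of 45 and 50 cells, and these values are a description.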

How the data were processed

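The deposited values are UMI counts, whole numbers not normalized, for the 2 libraries of 1 group. Per the file headers, Cell Ranger 6.0.0 (2021) and 8.0.0 (2024) made the counts, and per the submitters' processing notes the build was mm10. The 2024 library (2815 barcodes, 24569270 UMIs) was used for depth only.

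Cells were filtered as stated in the report. Scrublet in scanpy 1.11.5 called 3 doublets at an expected rate of 6% (0.0941% of cells, so that most doublets may remain), which were removed. Clusters came from counts scaled to 10000 per cell, 2000 variable genes without chemokine genes, 30 principal components, 15 neighbours and Leiden resolution 0.5. A cluster was named by fixed marker lists with at least 3 raised markers and more markers of its class than of all others among its 10 leading genes, the last condition having been chosen once the clusters had been seen. Class names come from this rule and may not match those of the study. Calculations used Python 3.11.15 and numpy 2.4.6, and the level and concentration rules were tested on simulated data.

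No count test was possible on 1 library. Shares were compared after thinning each cell to 2000 UMIs, leaving out 1439 shallower cells (291 of 300 NK and ILC-like, 219 of 230 T lineage-like), for which unthinned shares are given. Named genes are the 10 chemokines, genes of the fixed lists where a list is spoken of, and the 3 genes most like each chemokine over clusters, of which the closest is given. The chemokines and the lists were chosen with earlier results of these data known. Positions and overlaps are from GENCODE M21. Shared stretches of 31 bases with transcripts of other genes were found for Cxcl2 (7.59% of its stretches, with Cxcl3), Ccl9 (3.75%), Ccl6 (1.02%) and Ccl24 (0.0775%), and reads there cannot be placed with certainty. On the opposite strand Ccl2 overlaps Gm17268 (0 UMIs) and Ccl6 overlaps E230016K23Rik (6 UMIs). A result of the receptor list is not reported here.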

Additional observations from a re-analysis of the deposited data

How the results depend on the processing

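Leaving out a replicate could not be run, because 1 library gives gene values, and no paired analysis was possible because of the same. Over 9 other settings for the highest named class, 8 or 9 of the 10 genes had the same class as reported. Ccl8 moved from NK and ILC-like to macrophage-like cells in 7 of them, and Cxcl2 to neutrophil-like cells under median-of-ratios scaling and without its top cell. Cxcl16 moved to conventional DC-like cells with no cell filter and with chemokine genes used in clustering. In both of these settings only the cluster led by Ccr7 (110 cells) kept the conventional DC name, and the larger cluster with Cd209d among its leading genes was unnamed. Ccl24 moved by shares of thinned cells. Joining the cluster led by Prg4 to the macrophage-like cells, chosen after seeing the data, changed none. Levels in the highest class moved beyond their counting interval for 9 of 10 genes with classes cut by marker UMIs and for 7 with the highest doublet scores removed (Ccl12 in macrophage-like cells, for example, lay between 261 and 579.6 CPM over all alternatives). Raised in their highest class were 8 to 10 genes. That class was picked from the same values, and the share of all genes raised in theirs was not counted, so this is a description only. Concentrated were 6 genes at a limit of 1% of cells, where 1.70% of all genes were, and 6 at 2%, where 23.1% were. At 0.5% there were 2, where 0.571% of all genes were. Under the stricter cell filter there were 5, and 4 both without each gene's top cell and in cells thinned to 2000 UMIs. The share over all genes was not counted for these settings, so the counts in them are a description only. Shares above those in B lineage-like cells were found for 7 to 9 genes, 8 as reported, with no share over all genes counted beside them. Depth limits Ccl24 (66 UMIs) and Ccl8 (178), and the 6 to 11 thinned cells of the shallow clusters.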

Other observations

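The cluster led by Hist1h2ae and other genes of dividing cells (105 cells, median 6077 UMIs) had none of the 10 chemokines raised, against 3.37% of all genes. Its highest levels were 87.1 CPM for Ccl3 (66.3 to 112) and 75.3 for Ccl4 (56.1 to 99.0). The cell with the most Ccl6, 42 UMIs of 5313, was not a monocyte but lay in the DC-like cluster led by Cd209d, and it also carried 18 Cxcl2, 12 Ccl4 and 7 Ccl9 UMIs. Without it the Ccl6 level of that cluster was 57.9 CPM, against 76.0 with it. Cxcl3, a close relative of Cxcl2, had 12 UMIs in all kept cells.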
